A study of Mus musculus with 31 samples.

Results

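The genes described here build or mark the blood-brain barrier, the wall of brain capillaries that limits what passes from blood into the brain. They were taken by symbol from the gene name column of an expression array: Cldn5, Ocln, Tjp1, Pecam1, Tek, Slco1a4, Slco1c1, Abcb1a, Abcg2 and Slc2a1. All 10 were measured, out of 25203 genes that passed the filter on dim probes. They were followed in 31 arrays of mouse brain, 17 from animals given oleic acid and 14 from animals given physiological serum. Every animal was a 6 week old female C57BL/6 mouse under ketamine and xylazine anaesthesia. Oleic acid, a fatty acid that injures the lung when it enters the blood, was injected into the tail vein at 1.2 µl per g body weight in a volume of 200 µl, and controls received 200 µl of serum. Brains were taken after 1, 1.5, 3, 4, 18 or 24 h, with 3 oleic acid arrays at every time except 2 at 18 h, and with 3 serum arrays at 1 and 1.5 h and 2 at each later time. The labels number the replicates without saying that each came from a separate animal, so p-values measure the spread between these arrays.

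Brain endothelial cells are sealed to each other by tight junctions. Claudin 5 and occludin span the membrane there, and ZO-1, the product of Tjp1, ties them to the actin skeleton inside the cell. Pecam1 is an adhesion molecule at endothelial contacts, and Tek encodes Tie2, the receptor for the angiopoietins, which keeps vessels quiescent. The transporters decide what crosses the sealed wall: Slc2a1 (GLUT1) brings in glucose, Slco1c1 carries thyroxine, Slco1a4 carries organic anions, and Abcb1a (P-glycoprotein) and Abcg2 pump drugs back into the blood. Several of these genes, Tjp1, Ocln and Slc2a1 among them, are also made by other cells, and endothelial cells are a small part of brain tissue. A change in the number of vessel cells and a change of RNA per cell therefore cannot be told apart here.

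Each gene was read by a probe of 60 bases, and Ocln and Slco1c1 by a second one as well. The probe that stood for each gene was above background on 31 of 31 arrays. In 16-base words, 9 of these 10 standing probes shared no stretch with any other probe of the array. The Slco1a4 probe shared a run of 17 bases with the probe of 2310010M20Rik. The sequences below are the probes of 3 genes and the stretch of the Slco1a4 probe with that run, in capitals; they are shown because the values of each gene rest on a single probe. Positions are those of the array design on mm9.
Tek, chr4:94540624-94540683, plus strand: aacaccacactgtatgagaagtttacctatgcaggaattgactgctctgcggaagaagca
Pecam1, chr11:106540864-106540923, minus strand: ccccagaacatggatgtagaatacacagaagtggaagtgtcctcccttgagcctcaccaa
Abcg2, chr6:58642312-58642371, plus strand: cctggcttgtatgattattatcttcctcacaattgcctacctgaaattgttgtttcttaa
Slco1a4, bases 28 to 57 of the probe at chr6:141754675-141754734, minus strand: tacatgTGAGGCCCTGAGTTCAAccacaag
The other standing probes lay at chr16:18778046-18778105 (Cldn5), chr13:101268529-101268588 (Ocln), chr7:72441126-72441185 (Tjp1), chr6:141518164-141518223 (Slco1c1), chr5:8748075-8748134 (Abcb1a) and chr4:118809864-118809923 (Slc2a1). The probes name a transcript and a position in it; exons and untranslated regions were not assigned here, since no gene model of mm9 was used.

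All values below are log2 of the processed spot signal minus the 75th percentile of its array, and they are compared within a gene only. Between 54.3% and 76.4% of spots were above background, and the 75th percentile ran from 306 to 813 intensity units. The 16 markers of neurons, glia, microglia and endothelium used to check the tissue were above background on 31 of 31 arrays. The arrays lay on 5 slides, and time was partly tied to slide: all 1 h arrays lay on slide 1, all 4 h arrays on slide 4, and all oleic acid arrays of 18 and 24 h on slide 5. Gabra6, a gene of cerebellar granule cells, was at or below -6.12 on 4 arrays (serum 1 h replicate 1, oleic acid 1.5 h replicate 2, serum 4 h replicate 2 and oleic acid 4 h replicate 3) and at or above -3.94 on the others; whether the pieces of brain taken differed was not tested.

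**Figure D1:**
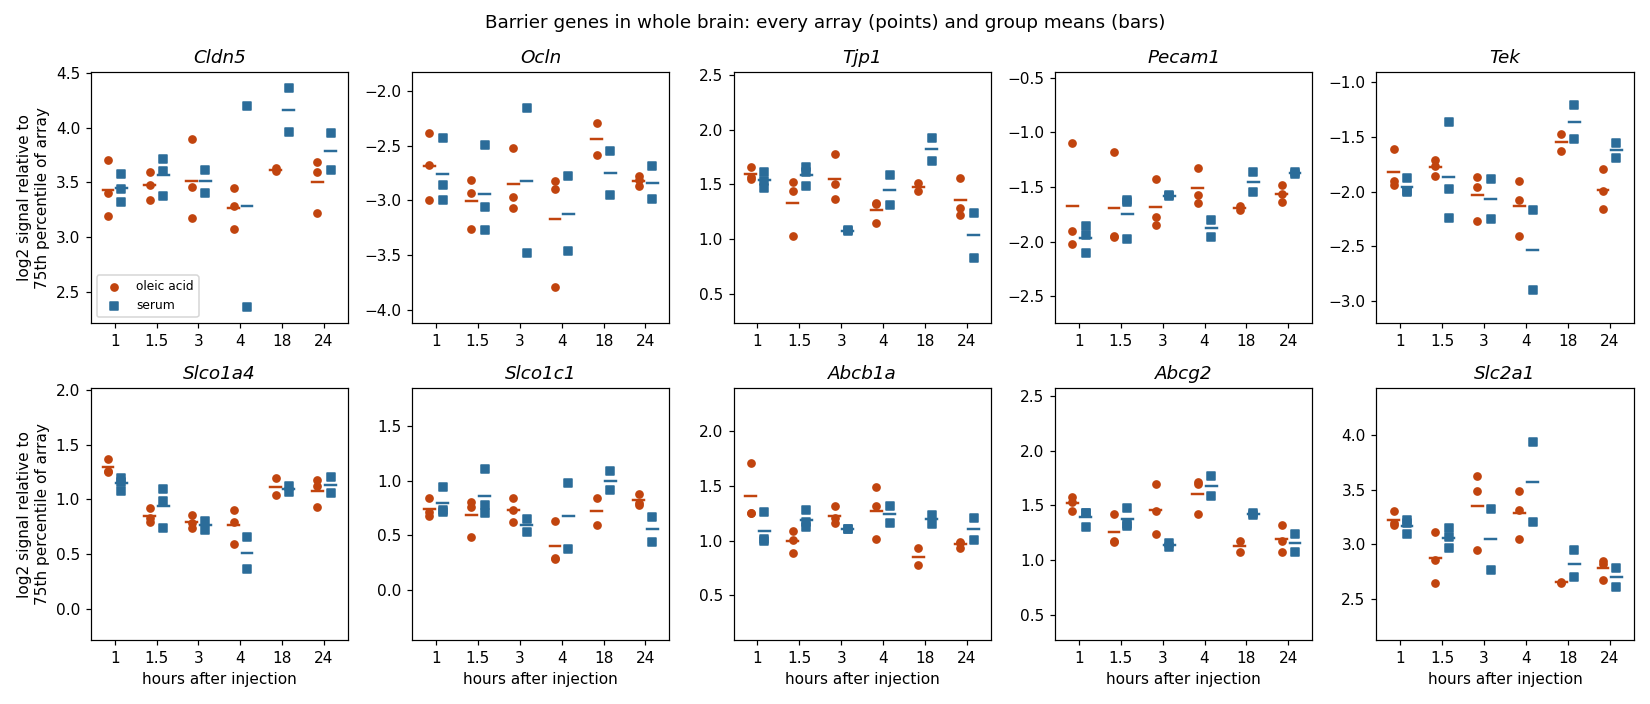
Log2 signal relative to the 75th percentile of the array (vertical axis, the same span in each panel) against hours after injection for the 10 barrier genes. Circles are oleic acid arrays and squares serum arrays, bars are group means; treatments overlap at most times, while Slco1a4 is low and Slc2a1 high around 4 h.

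The first question was whether oleic acid changed these genes in the brain. It did not do so detectably at any of the 6 times or on average: 0 of 10 passed limma at an adjusted p of 0.05 over all 25203 genes, at any time or for the mean of the times. Over all genes the test called 0% at 1, 1.5, 3, 18 and 24 h and for the mean of the times, and 0.00397% (1 gene) at 4 h. With no adjustment, p fell below 0.05 for 1 member at 1 h, 0 at 1.5 h, 2 at 3 h, 1 at 4 h, 2 at 18 h, 1 at 24 h and 0 for the mean. Among all genes that share was 4.84%, 5.29%, 4.85%, 3.04%, 7.28%, 6.58% and 4.56% in the same order.

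The mean of the 6 treatment differences was the most precise comparison, and its interval says nothing of single times, whose 95% intervals were wider and reached from -1.28 (Cldn5 at 18 h) to 1.08 (Ocln at 18 h). Among the junction genes, Cldn5 had the largest mean difference, -0.16 (95% interval -0.43 to 0.11), Ocln had 0.04 (-0.24 to 0.32) and Tjp1 had 0.01 (-0.12 to 0.14). The endothelial surface genes had 0.03 (-0.16 to 0.22) for Pecam1 and 0.02 (-0.17 to 0.21) for Tek. The uptake carriers gave 0.05 (-0.05 to 0.15) for Slco1a4, -0.07 (-0.20 to 0.07) for Slco1c1 and -0.03 (-0.21 to 0.14) for Slc2a1. The efflux pumps gave -0.03 (-0.15 to 0.08) for Abcb1a, and 7.487e-05 (-0.11 to 0.11) for Abcg2. Each interval includes 0, and the unadjusted p of the 10 genes ran from 0.234 upward (adjusted p 0.998 or more, limma). The Cldn5 mean depended on the serum arrays of 4 h: without serum 4 h replicate 1 it was -0.31, and without serum 4 h replicate 2 it was -0.0047.

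**Figure D2:**
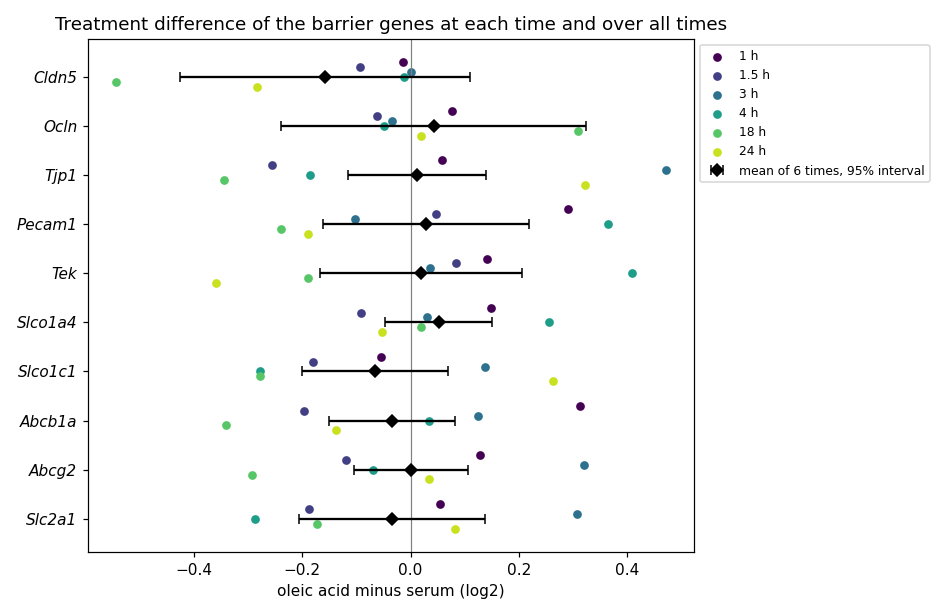
Oleic acid minus serum in log2 units (horizontal axis) for each barrier gene. Coloured points are the differences at the 6 times, and black diamonds with bars are the mean of the times with its 95% interval; all 10 intervals include 0 and the single times scatter on both sides.

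Among the junction genes, Tjp1 came nearest to a treatment difference, at 3 h. It stood at 1.36, 1.5 and 1.78 after oleic acid, against 1.08 and 1.07 after serum. The arrays did not overlap, and the difference was 0.47 ± 0.153 (SE), 1.39-fold, with an adjusted p of 0.938 (limma). Within slide 3, which held 2 arrays of each treatment, it was 0.36 ± 0.179. The sign of the Tjp1 difference was not steady over time: -0.26 ± 0.137 at 1.5 h, -0.19 ± 0.153 at 4 h, -0.34 ± 0.168 at 18 h and 0.32 ± 0.153 at 24 h. At 18 h the oleic acid arrays lay on slide 5 and the serum arrays on slide 4, so treatment and slide cannot be told apart there. With the slide as a fixed block, which links these slides through arrays of other groups only, the 18 h difference turned to 0.868 (adjusted p = 0.852, limma). The 24 h difference was 0.12 without serum 24 h replicate 1, the lowest Tjp1 array of all. The test of whether the difference varied with time gave Tjp1 an F of 4.65, at the 99.4th percentile of all genes, with an adjusted p of 0.837 (limma), and no gene of the array passed (0%; 5.44% had an unadjusted p under 0.05). With no adjustment 3 members were under 0.05 in that test, Tjp1, Abcb1a and Abcg2, all with an adjusted p of 0.837 (limma).

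The efflux pumps gave most of the other low p-values. Abcb1a stood at 1.25, 1.26 and 1.71 after 1 h of oleic acid, against 1.02, 1.00 and 1.26 after serum. The highest serum array lay within the oleic acid range, and the difference was 0.31 ± 0.125 with an adjusted p of 0.924 (limma); without oleic acid 1 h replicate 3 it was 0.16. At 18 h the order was turned: 0.78 and 0.93 after oleic acid, against 1.24 and 1.16 after serum, a difference of -0.34 ± 0.153 (adjusted p = 0.671, limma). Abcg2 stood at 1.24, 1.44 and 1.70 after 3 h of oleic acid, against 1.12 and 1.16 after serum. These arrays did not overlap either, with a difference of 0.32 ± 0.127 (adjusted p = 0.938, limma), and within slide 3 the difference was 0.20 ± 0.186. At 18 h Abcg2 read 1.07 and 1.18 after oleic acid, against 1.41 and 1.43 after serum, a difference of -0.29 ± 0.139 (adjusted p = 0.671, limma) that turned to 0.342 with the slide as a fixed block. The uptake carrier Slco1a4 gave the low p at 4 h, with 0.90, 0.79 and 0.59 after oleic acid, against 0.65 and 0.36 after serum, a difference of 0.26 ± 0.119 (adjusted p = 0.996, limma) with overlapping arrays; it was 0.40 without serum 4 h replicate 1 and 0.11 without serum 4 h replicate 2. Non-overlap in the upward direction was met by 10.1% of all genes at 3 h, where the groups hold 3 and 2 arrays.

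At 18 h, 8 of the 10 genes were lower after oleic acid, with a median difference of -0.26 against -0.0401 over all genes, and 54.9% of all genes were lower. Cldn5 stood at 3.61 and 3.63 after oleic acid, against 4.36 and 3.97 after serum, a difference of -0.54 ± 0.352 (adjusted p = 0.685, limma). Arrays were separate and lower for 7 of the 10 members, against 29.5% of all genes. Both oleic acid arrays of 18 h lay on slide 5 and both serum arrays on slide 4, which means that treatment and slide cannot be told apart at this time. With the slide as a fixed block 5 of the 8 lower genes turned higher (Tjp1 0.868, Slc2a1 0.539, Slco1c1 0.414, Abcg2 0.342 and Tek 0.168), Ocln turned to -0.456, and Cldn5, Abcb1a and Pecam1 stayed lower at -0.968, -0.241 and -1.17, with adjusted p of 0.852 or more for all 10 genes (limma). At 1 h, 8 members were higher (median 0.10, 50.4% of all genes higher), and at 1.5 h, 8 were lower (median -0.11, 52.2% of all genes lower). The medians at 3, 4 and 24 h were 0.08, -0.03 and -0.02, with 7, 4 and 5 members higher, against 53.7%, 51.4% and 42.8% of all genes.

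Genes that work beside the barrier genes were read from 12 lists, and in them 0 genes passed the treatment test at any time or for the mean. Of 15 measured junction partners, 5 were higher and 10 lower after oleic acid on average, with Lsr, a tricellular junction protein, at -0.14 ± 0.071. Of 24 further barrier transporters and receptors, 12 were higher and 12 lower. Mfsd2a, the lipid transporter that carries docosahexaenoic acid and restrains vesicle traffic in brain endothelium, had -0.18 ± 0.0698 (adjusted p = 0.998, limma). Of 25 endothelial identity genes, 8 were higher and 17 lower, with Ramp2 at -0.14 ± 0.0525 and Flt1 at -0.14 ± 0.0583. Of 15 pericyte and smooth muscle genes, 2 were higher and 13 lower, led by Higd1b at -0.18 ± 0.0567 (adjusted p = 0.998, limma).

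Of 13 permeability and activation genes, which include the caveolar gene Plvap and the leukocyte receptors Icam1 and Vcam1, 4 were higher and 9 lower, with Nos3 at -0.14 ± 0.0753. Of 14 genes of Wnt signalling at the barrier, 4 were higher and 10 lower, and of 16 angiopoietin and VEGF genes, 4 were higher and 12 lower. Of 13 astrocyte endfoot genes, 6 were higher and 7 lower, with Gja1, the gap junction protein connexin 43, at 0.16 ± 0.0636. Of 17 HIF targets, genes switched on in low oxygen, 7 were higher and 10 lower, with P4ha1, a collagen prolyl hydroxylase, at -0.22 ± 0.0794. Of 14 choroid plexus genes 5 were higher and 9 lower, and of 12 genes of cerebellum, pituitary, liver and lung 8 were higher and 4 lower. Over all genes 47.5% were higher and 52.5% lower in this mean.

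Of 15 red cell, platelet and leukocyte genes, 3 were higher and 12 lower after oleic acid, and 4 of the 15 had an unadjusted p under 0.05, against 4.56% of all genes. The mean difference was -0.73 ± 0.164 for Hbb-b1, a beta globin, and -0.72 ± 0.159 for Alas2, the first enzyme of haem synthesis in red cells, each with an adjusted p of 0.998 (limma). Their part in the values of the barrier genes was not tested.

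The second question the series allows is how the genes moved over the hours after injection, in each treatment by itself. Here the levels of several barrier genes differed between the time groups, which were partly tied to slide. In oleic acid animals Slco1a4, Abcb1a and Abcg2 passed the test across the 6 times (3 of 10, against 7.06% of all genes), and in serum animals Tjp1, Tek and Slco1a4 did (3 of 10, against 10.5%). The adjusted p of limma's F-test was 0.0143, 0.0456 and 0.0399 for the oleic acid genes and 0.0196, 0.0361 and 0.0137 for the serum genes. Slco1a4 was the gene called in both treatments. With the slide as a fixed or a random block, 0 of 10 passed in either treatment. Fitted by itself, slide accounted for 55.1% of the spread of Slco1a4, 69.5% of that of Abcg2 and 7.13% of that of Tek. The median over all genes was 37.1%. Time fitted by itself accounted for 76%, 53.3% and 51.6% in the same order, against a median of 33.7%. Since time was partly tied to slide, these shares overlap and do not separate the 2 factors.

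Slco1a4, the organic anion carrier of the capillary wall, was high at 1 h, low at 3 and 4 h and high again by 18 h. In oleic acid arrays it stood at 1.25 to 1.37 at 1 h, 0.79 to 0.92 at 1.5 h, 0.74 to 0.86 at 3 h, 0.59 to 0.90 at 4 h, 1.04 to 1.19 at 18 h and 0.93 to 1.18 at 24 h. In serum arrays it stood at 1.08 to 1.2, 0.74 to 1.1, 0.72 to 0.80, 0.36 to 0.65, 1.07 to 1.12 and 1.06 to 1.2 at the same times. In both treatments every array of 18 and 24 h lay above every array of 3 and 4 h. For this and the other time comparisons the share of all genes without overlap is not given. A lack of overlap is therefore not read as particular to the genes named.

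Set against 3 to 4 h, the later block of 18 to 24 h was higher for Slco1a4 by 0.32 ± 0.0798 in oleic acid animals (1.25-fold, adjusted p = 0.0227) and by 0.48 ± 0.0921 in serum animals (1.39-fold, adjusted p = 0.00414, limma). Against 1 to 1.5 h, the block of 3 to 4 h was lower by -0.29 ± 0.0752 after oleic acid (adjusted p = 0.0574) and by -0.41 ± 0.0841 after serum (adjusted p = 0.0144, limma). Slco1a4 was the 1 member called in that last comparison, in which 2.14% of all genes were called, and 0 were called after oleic acid, against 1.11% (2 members and 16.6% of genes at an unadjusted p under 0.05, against 3 members and 16.3% after serum). The drop rests on comparisons across slides: with the slide as a fixed block it was -0.0959 in serum animals (adjusted p = 0.954), and it also lost its call without serum 3 h replicate 2 (-0.39) or serum 4 h replicate 2 (-0.33). The later rise after serum kept its size with the slide as a block, 0.46, at an adjusted p of 0.0801. The rise after oleic acid became 0.28 without oleic acid 18 h replicate 1, 0.29 without oleic acid 24 h replicate 3 and 0.28 without oleic acid 4 h replicate 3, and lost its call each time. With the slide as a fixed block it was 0.42, at an adjusted p of 0.574 (limma). With another background correction (normexp) it was 0.19.

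Tek, the Tie2 receptor, had the widest swing of the members between group means, 1.18 on the log2 scale, with serum 18 h highest and serum 4 h lowest. Serum arrays read -1.88, -2.01 and -2.00 at 1 h, -1.36, -1.98 and -2.25 at 1.5 h, -1.88 and -2.25 at 3 h, -2.90 and -2.17 at 4 h, -1.21 and -1.52 at 18 h, and -1.69 and -1.56 at 24 h. All 4 late serum arrays lay above all 4 of 3 and 4 h. The 18 to 24 h block was higher than the 3 to 4 h block by 0.81 ± 0.173 in serum animals, 1.75-fold (adjusted p = 0.0093, limma). In oleic acid animals the same difference was 0.31 ± 0.15 with an adjusted p of 0.234, and their arrays overlapped. The 2 treatments were not tested against each other in this change.

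In that serum comparison 2 of 10 members passed, Tek and Slco1a4, against 3.84% of all genes. Without serum 4 h replicate 1 the Tek difference was 0.63 and lost its call, and without serum 18 h replicate 1 it was 0.73 and lost its call. Slco1a4 remained called without either array. Without serum 4 h replicate 2 the count was 4, since Cldn5 at 1.04 and Slc2a1 at -0.73 then passed as well.

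The glucose carrier and the efflux pumps moved the other way in oleic acid animals. Slc2a1 stood at 2.95, 3.62 and 3.49 at 3 h and 3.32, 3.49 and 3.05 at 4 h, then at 2.64 and 2.66 at 18 h and 2.67, 2.82 and 2.85 at 24 h. No late array reached the lowest array of 3 to 4 h, and the late block was lower by -0.60 ± 0.138, 1.52-fold (adjusted p = 0.0123, limma). Abcg2 was lower by -0.38 ± 0.0849, 1.3-fold (adjusted p = 0.0112), and Abcb1a by -0.34 ± 0.0938, 1.27-fold (adjusted p = 0.0363, limma). With Slco1a4, which was higher, 4 of 10 members passed here, against 5.31% of all genes. In serum animals the same differences were -0.55 ± 0.159 for Slc2a1 (adjusted p = 0.0563), -0.12 ± 0.098 for Abcg2 and -0.02 ± 0.108 for Abcb1a, none of which passed.

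These falls could not be separated from the slide. Every late oleic acid array lay on slide 5, which also held 1 serum array, and with the slide as a fixed block the differences were 0.0424 for Slc2a1 (adjusted p = 0.98), 0.14 for Abcg2 (adjusted p = 0.857) and -0.28 for Abcb1a (adjusted p = 0.76). Leaving out oleic acid 18 h replicate 1 took the number of members called to 0 (Slc2a1 -0.60, Abcg2 -0.35, Abcb1a -0.30). Slc2a1 also lost its call without oleic acid 18 h replicate 2, at -0.61. Abcb1a lost its call without any 1 of 9 arrays, at -0.38 to -0.29: replicates 1 and 3 of 3 h, 1 and 3 of 4 h, both of 18 h and all of 24 h.

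**Figure D3:**
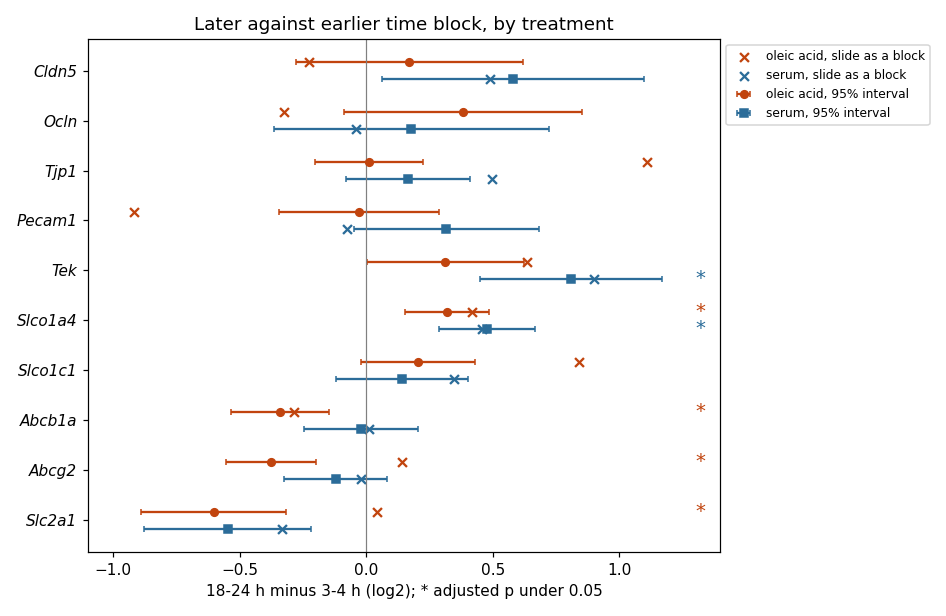
The difference between 18 to 24 h and 3 to 4 h in log2 units (horizontal axis) for each barrier gene, in oleic acid animals (circles, upper line of each pair) and serum animals (squares), with 95% intervals. Crosses give the same difference with the slide as a block, and stars mark an adjusted p under 0.05; Stars stand at Slco1a4 in both treatments, at Tek in serum animals, and at Abcb1a, Abcg2 and Slc2a1 in oleic acid animals.

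Over the whole span, from 1 to 1.5 h to 18 to 24 h, 0 of 10 members passed in oleic acid animals (0.675% of all genes) and 0 of 10 in serum animals (4.82% of all genes), with 3 members at an unadjusted p under 0.05 in each, against 13.5% and 22.2% of all genes (limma). In oleic acid animals these were Abcb1a at -0.29 ± 0.0938, Abcg2 at -0.23 ± 0.0849 and Slc2a1 at -0.33 ± 0.138. In serum animals they were Slc2a1 at -0.35 ± 0.145, Tek at 0.42 ± 0.158 and Pecam1 at 0.44 ± 0.161. Pecam1 stood at -1.55 to -1.36 in the late serum arrays and at -2.10 to -1.62 in the early ones, with no overlap. In serum animals without serum 1.5 h replicate 1, Tek passed at 0.54.

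Some times can be compared within a slide. Slide 4 held both serum arrays of 18 h and both of 4 h, and there Tek and Slco1a4 were called (2 of 10 members, against 0.928% of all genes). Tek read -1.21 and -1.52 at 18 h, against -2.90 and -2.17 at 4 h, a difference of 1.18 ± 0.245, 2.26-fold (adjusted p = 0.0178, limma). Slco1a4 read 1.12 and 1.07 at 18 h, against 0.65 and 0.36 at 4 h, a difference of 0.59 ± 0.13, 1.5-fold (adjusted p = 0.0268, limma). In both genes the pairs of arrays were separate, as they also were in Tjp1, Pecam1, Slc2a1 and Abcg2, which were not called. The share of all genes with such separation is not given for this comparison, so the separation is not read as a trait of these genes. Slc2a1 ran opposite, 2.70 and 2.95 at 18 h against 3.94 and 3.21 at 4 h, a difference of -0.75 ± 0.225 that did not pass (adjusted p = 0.135, limma).

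With 2 arrays a side, single arrays carried these calls. Without serum 18 h replicate 1 no member passed (Tek 1.02, Slco1a4 0.56), nor without serum 18 h replicate 2 (Tek 1.33, Slco1a4 0.61). Without serum 4 h replicate 1 Slco1a4 alone passed and Tek was 0.81. Without serum 4 h replicate 2, an array low in Gabra6, Tek, Cldn5 at 1.80 and Slc2a1 at -1.11 passed and Slco1a4 was 0.44. In each of these fits that left 1 array at a time, the lone array was assumed to vary like the other groups. On slide 5, oleic acid 24 h against oleic acid 18 h gave 0 of 10 members and 0% of all genes (0 members and 2.08% of genes at an unadjusted p under 0.05, limma).

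**Figure D4:**
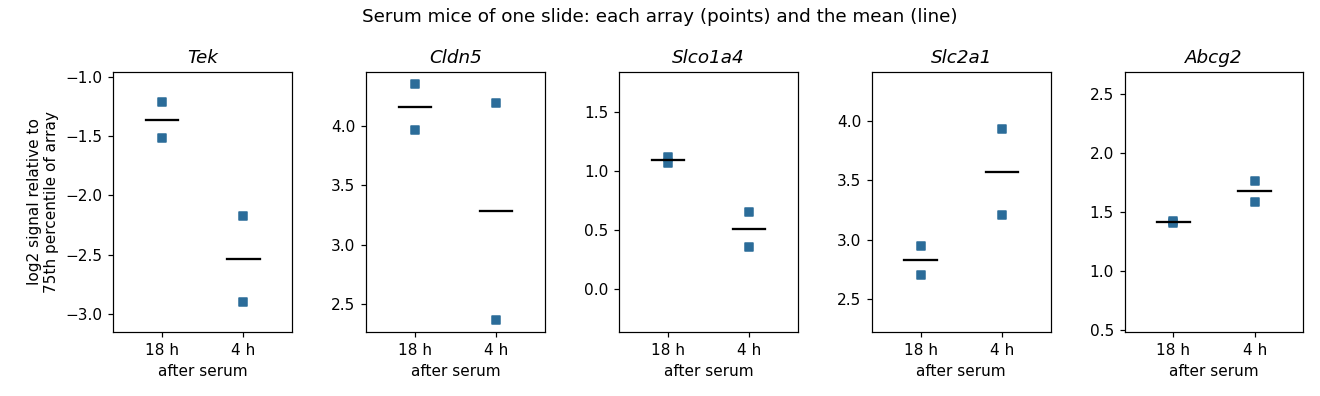
Log2 signal relative to the 75th percentile of the array for 5 barrier genes in the 4 serum arrays of slide 4, at 18 h (left) and 4 h (right). Squares are arrays and lines are means; Tek and Slco1a4 lie higher at 18 h, and the 4 h arrays of Cldn5 are far apart at 2.36 and 4.20.

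Serum 4 h replicate 1 stood apart in several members. It held the lowest Cldn5 and Tek and the highest Slc2a1 of all 31 arrays, at 2.36, -2.90 and 3.94. Serum 4 h replicate 2 held the lowest Slco1a4 and the highest Abcg2, at 0.36 and 1.77. The mean of the 25 endothelial identity genes was 0.574 and 0.694 in the serum arrays of 18 h, 0.358 and 0.705 in those of 4 h, and between 0.369 and 0.556 in the serum arrays of the other times. The part of vessel content in the member values was not tested.

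Ocln, the other membrane protein of the junction, and Slco1c1 passed no comparison. Cldn5 and Pecam1 passed none either in the main fit of all arrays. The Ocln group means ran between -3.17 in oleic acid 4 h and -2.44 in oleic acid 18 h, a span of 0.73 against a residual SD of 0.387. The second Ocln probe was above background on 20 of 31 arrays, and at 24 h it differed from the first: 1.01 ± 0.54 for oleic acid minus serum against 0.02 ± 0.345 in the same fit. Slco1c1 ran between 0.40 in oleic acid 4 h and 1.00 in serum 18 h. When the 12 group means of each gene are put in order, few neighbours differ by more than the larger of their SDs: 2 of 11 neighbouring pairs for Tjp1 and Slco1a4, 1 for Cldn5, Tek, Abcb1a and Slc2a1, and 0 for Ocln, Slco1c1, Abcg2 and Pecam1.

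With the slide means removed, the 45 pairs of members had a median Pearson correlation of 0.0588 over the 31 arrays, and 26 pairs were positive; these values describe arrays that share slide, array scaling and treatment. Tjp1 and Slco1c1 went together most closely (r = 0.742, Spearman 0.74, and 0.668 without the 2 arrays farthest from the Tjp1 median). Abcb1a and Pecam1 had r = 0.607 but Spearman 0.349, and r was 0.325 without oleic acid 1 h replicate 3 and serum 1 h replicate 2. Oleic acid 1 h replicate 3 held the highest value of both these genes. Cldn5 and Tek had r = 0.705 and Spearman 0.59, but r was 0.421 without serum 4 h replicate 1 and serum 18 h replicate 1. Slc2a1 ran against Cldn5 (r = -0.784, Spearman -0.745, -0.577 without those same arrays) and against Tek (r = -0.75, Spearman -0.606, -0.535 without them).

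**Figure D5:**
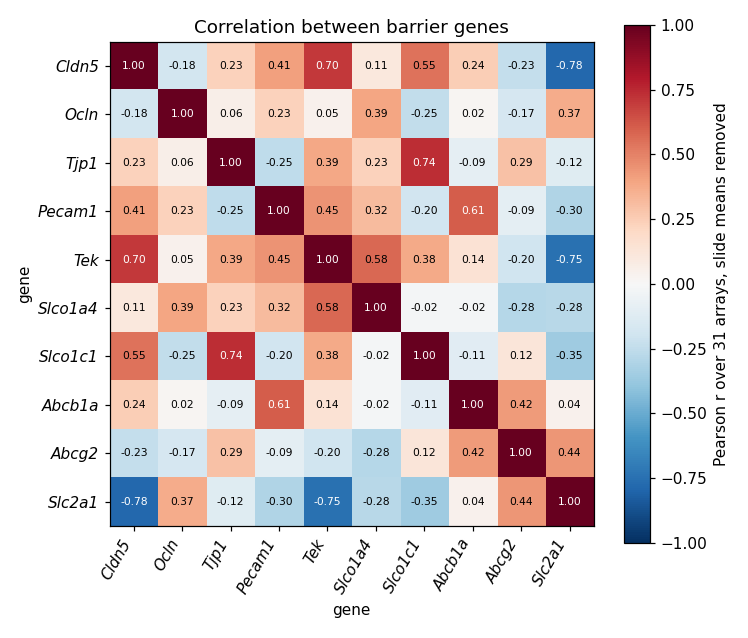
Pearson correlation between each pair of barrier genes over 31 arrays after the mean of each slide was removed (colour scale from -1 to 1, values in the cells). Slc2a1 is opposed to Cldn5 (-0.784) and Tek (-0.75), and the highest pairs are Tjp1 with Slco1c1 (0.742), Cldn5 with Tek (0.705) and Abcb1a with Pecam1 (0.607). Each of these pairs was weaker without its 2 farthest arrays.

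Of the other barrier transporters, 3 differed between the time groups in the same comparison of 18 to 24 h against 3 to 4 h. Abcc4, an efflux pump of organic anions, was lower by -0.55 ± 0.0952 in oleic acid animals (adjusted p = 0.00122) and by -0.50 ± 0.11 in serum animals (adjusted p = 0.0106, limma), and on slide 4 it was lower at 18 h than at 4 h in serum by -0.75 ± 0.155 (adjusted p = 0.0173). It read -0.19 to -0.04 in oleic acid arrays and -0.15 to 0.07 in serum arrays at 4 h, above every array of 18 and 24 h. Mfsd2a was lower in oleic acid animals by -0.69 ± 0.117 (adjusted p = 0.00109), with -0.27 ± 0.135 in serum animals. Slc38a5, a glutamine carrier, was higher in oleic acid animals by 0.72 ± 0.182 (adjusted p = 0.0235, limma), with 0.68 ± 0.211 in serum animals (adjusted p = 0.0753). Of the 24 genes of that list, 1 was higher and 2 lower past the test after oleic acid, and 0 and 1 after serum, against 5.31% and 3.84% of all genes. The late oleic acid arrays of these genes too lay on slide 5 alone, and with the slide as a fixed block the number of all genes called was 32 in oleic acid animals, against 1338 without it, and 310 in serum animals, against 969.

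Of the endothelial identity genes, 2 of 25 passed in oleic acid animals, Robo4 at -0.55 ± 0.0977 and Nostrin at -0.86 ± 0.168, both lower (5.31% of all genes were called); in serum animals they were at -0.37 ± 0.113 and -0.24 ± 0.194. In serum animals 3 of 25 passed, all higher: the transcription factor Sox18 at 0.99 ± 0.219 and the surface proteins Emcn at 0.50 ± 0.129 and Icam2 at 0.61 ± 0.162 (3.84% of all genes were called). These had the same sign in oleic acid animals, at 0.47 ± 0.189, 0.27 ± 0.112 and 0.21 ± 0.14, without passing. The serum arrays of 4 h differed between replicates, at -1.69 and -0.80 for Sox18, -2.05 and -1.42 for Emcn, and 0.05 and 1.08 for Icam2. The medians of the list were -0.07 in oleic acid animals and 0.10 in serum animals, against -0.0444 and 0.0122 over all genes. In Wnt signalling, which maintains the barrier, the ligand gene Ndp was higher by 0.35 ± 0.0894 and 0.37 ± 0.103 in oleic acid and serum animals, and its receptor gene Fzd4 was lower by -0.57 ± 0.158 and -0.65 ± 0.182 (adjusted p from 0.027 to 0.0465, limma). Among junction partners Magi1 was lower and Ctnnd1 higher after oleic acid, at -0.43 ± 0.0859 and 0.29 ± 0.0748. The vessel growth factor Vegfc was higher by 0.52 ± 0.119 in serum animals, and the transcription factor Foxo1 was lower by -0.28 ± 0.0816 in oleic acid animals, where the ligand gene Wnt7a was higher by 0.68 ± 0.182. In serum animals the cystine carrier Slc7a11 of the astrocyte list was higher by 0.63 ± 0.117 and P4ha1 of the HIF targets by 0.71 ± 0.153. The slide limit given above for the barrier transporters holds for all these calls too. Their values with the slide as a block or with arrays left out are not given here. The pericyte, permeability, choroid plexus and blood lists, and that of cerebellum, pituitary, liver and lung, held 0 calls in this comparison (limma), with 3, 2, 1, 4 and 0 genes at an unadjusted p under 0.05 after oleic acid and 1, 3, 4, 3 and 0 after serum. The share of all genes at that unadjusted p is not given for this comparison, so these counts cannot be set against it.

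The genes whose slide-centred values were most like the mean of the standardised members over 31 arrays were Ccar1 (r = 0.824), Trib2 (0.814), Plekhm3 (0.798), Spcs3 (0.797) and Fchsd2 (0.78), out of 25203. Without the 2 arrays farthest from the median these were 0.762, 0.783, 0.728, 0.716 and 0.722. The members themselves shared little of this mean: their r with the mean of the other members ran from -0.386 (Slc2a1) to 0.477 (Tek).

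RefSeq's GRCm38.p6 promoter table held 12 start sites for 9 of the 10 genes. The 250 bases before the start are shown for Tek and Slco1a4, whose lowest group mean was serum 4 h, and for Slc2a1, whose highest was serum 4 h. The lowest Tek array was replicate 1 of that group, and the lowest Slco1a4 array was replicate 2. Slc2a1 read 3.94 and 3.21 there, and its difference between 18 h and 4 h did not pass. Capitals mark ACGTG, the core of the site bound by hypoxia-inducible factor and of part of the E-boxes, read on either strand.
Tek, chr4:94739039-94739288, plus strand: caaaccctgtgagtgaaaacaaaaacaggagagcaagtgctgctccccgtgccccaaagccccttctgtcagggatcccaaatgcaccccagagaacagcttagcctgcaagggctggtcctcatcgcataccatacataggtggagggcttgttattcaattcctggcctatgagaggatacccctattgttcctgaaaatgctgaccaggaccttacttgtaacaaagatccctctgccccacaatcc
Slco1a4, chr6:141856221-141856470, minus strand: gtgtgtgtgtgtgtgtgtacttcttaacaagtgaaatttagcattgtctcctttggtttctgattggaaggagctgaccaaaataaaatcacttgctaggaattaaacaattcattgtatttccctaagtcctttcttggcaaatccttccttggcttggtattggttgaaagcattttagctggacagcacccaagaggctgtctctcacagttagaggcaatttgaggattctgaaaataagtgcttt
Slc2a1, chr4:119108495-119108744, plus strand: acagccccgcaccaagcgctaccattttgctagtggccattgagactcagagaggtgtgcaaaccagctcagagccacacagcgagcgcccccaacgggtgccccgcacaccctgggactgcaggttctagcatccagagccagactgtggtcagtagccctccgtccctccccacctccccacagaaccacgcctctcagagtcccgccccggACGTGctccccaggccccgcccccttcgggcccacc
Slc2a1 was the 1 gene of the 9 with this motif in the window, which 16.6% of the 32851 promoters of the table hold. The motif GGAA, the core bound by ETS factors, was in a window of 7 of the 9 genes and in 93.4% of all promoters. Both motifs were chosen with the results known, and a match is a description of these letters.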

How the data were processed

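Brain RNA (200 ng, Cy3) was hybridised to 31 one-colour Agilent arrays. The intensity files were deposited by the authors as scanner output of Agilent Feature Extraction 10.5.1.1, per the submitters' processing notes and the file headers; the processed signal is already background-subtracted. The deposited value table holds log2 values made by the authors; all its columns have the same median, 6.13, as quantile normalization gives, and the method is not given in the sources used here.

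From the intensity columns, log2 of the processed signal minus each array's 75th percentile was taken. Control spots were left out, spots of a probe were averaged, and 35652 of 55681 probes above background in all arrays of at least 1 group were kept, 1 per gene, the brightest. The 12 groups were fitted as means of 1 linear model (limma 3.58.1, R 4.3.3, 19 residual degrees of freedom), with Benjamini-Hochberg adjustment over 25203 genes; the code was tested on simulated data. Errors are SE unless stated. The number of arrays, 2 or 3 per group, limits the precision. Replicate numbers did not pair the samples: correlations of same-numbered arrays ran from -0.621 to 0.39. The members and lists were chosen with earlier results of these data known. Genes named from a list were those past the adjusted test, up to 3 per list and comparison, otherwise up to 2 with the smallest unadjusted p; where others are named, their values had been seen. Alternatives were other scalings, background corrections and filters, slide, scan date or replicate number as blocks, and leaving arrays out; leaving out the 4 arrays low in Gabra6 or slide 2 was chosen after seeing the data. Array coordinates are mm9; promoters are GRCm38.p6.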

Additional observations from a re-analysis of the deposited data

How the results depend on the processing

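No member passed a treatment comparison under any of the alternatives or with any array left out. For the time comparisons, with the values above as the start, the number of members called depended on the setting and the cause was not tested. For serum 3 to 4 h against 1 to 1.5 h it was 0 instead of 1 with median scaling, normexp, the slide as a fixed block, the slide as a random block and without the 4 arrays low in Gabra6, 2 without slide 2, and 0 to 1 with single arrays left out. For serum 18 to 24 h against 3 to 4 h it was 0 instead of 2 with median scaling and with the slide as a fixed block, 4 without the 4 arrays low in Gabra6, and 1 to 4 with single arrays left out. For oleic acid 18 to 24 h against 3 to 4 h it was 0 instead of 4 with median scaling and either slide block, 2 without the 4 arrays low in Gabra6, and 0 to 4 with single arrays left out; the differences of Abcg2 (0.14) and Slc2a1 (0.0424) turned with the slide as a fixed block. For oleic acid 3 to 4 h against 1 to 1.5 h it was 1 instead of 0 with quantile normalization and 0 to 1 with single arrays left out, and for serum 18 to 24 h against 1 to 1.5 h 0 to 1. For serum 18 h against 4 h on slide 4 it was 0 instead of 2 with median scaling, 1 with no filter on dim probes, and 0 to 3 with single arrays left out. The F-test over times gave 1 instead of 3 for serum with median scaling, 0 with either slide block, and 1 to 4 with single arrays left out; for oleic acid it gave 1 with median scaling, with no filter and without slide 2, 0 with either slide block and without the 4 arrays low in Gabra6, and 1 to 4 with single arrays left out. With the replicate block the counts were 4 and 2 in the serum and oleic acid F-tests and 3 for oleic acid 18 to 24 h against 3 to 4 h, and it changed no other count. Median scaling moved the median of all genes by 0.104, -0.196, -0.137 and 0.115 at 3, 4, 18 and 24 h in the treatment comparisons. With the slide as a fixed block, the number of all genes called went to 35 for the mean treatment difference, against 0, to 80 at 24 h, against 0, to 310 for the serum late block, against 969, and to 32 for the oleic acid late block, against 1338. The second Ocln probe, above background on 20 of 31 arrays, was the member probe most limited by dim signal.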
